A study of Mus musculus with 66 samples.

Results

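The genes described here encode the proteins of the cytosolic ribosome. They were taken by symbol from a table of transcript levels in mouse C2C12 cells: every gene named Rpl or Rps followed by a digit, together with Rplp0, Rplp1, Rplp2 and Rpsa, with the Rps6k kinases and symbols containing -ps left out. This rule found 86 of 22489 genes. Of these, 49 were assigned by symbol alone to the large subunit, 33 to the small subunit and 3 to the stalk. The remaining gene, Rps19bp1, encodes a binding partner of Rps19 and not a ribosomal protein. The study placed GFP-tagged histone H3 variants in C2C12, an established mouse myoblast line that fuses into muscle fibres when serum is withdrawn, and measured polyadenylated RNA with oligo-dT priming. In all, 9 lines carried a tagged H3 gene and WT cells carried none.

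Each of the 9 GFP-H3 lines was a Tet-On C2C12 line with an N-terminal GFP tag on an H3 variant, driven by a doxycycline-inducible promoter. The lines had been selected in doxycycline and G418 and sorted for GFP, and the study's methods call them stable clones. Whether doxycycline was present when RNA was harvested is not given in the sources used here. The variants H3.1, H3.2 and H3t are of the H3.1/H3.2 type, and H3.3 itself, with H3mm7, H3mm11, H3mm12, H3mm13 and H3mm16, is of the H3.3 type. Growth cells were kept in 20% fetal bovine serum, and differentiated cells were moved at confluence to 2% horse serum for 48 hours. There was 1 library for each line and state, 20 in all. The 9 lines, each with a different H3, therefore served as the replicates of a state, and p-values measure the spread between lines. WT had 1 library per state and no replicate. The columns of one line are headed H3mmT and were taken as H3t.

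A ribosome joins a large and a small subunit, each a scaffold of ribosomal RNA with many small basic proteins, most of which are needed in equal number. In mammals many of these mRNAs start with a C followed by a run of pyrimidines, the TOP motif, through which mTOR signalling controls their translation. The genes are short and strongly expressed, and their mRNAs have been copied back into the genome many times as intronless processed pseudogenes. Fusing myoblasts leave the cell cycle, and ribosome production is known to fall as proliferation ends.

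Several table rows that are not ribosomal protein genes by symbol lie on such copies. The pairs below are shown because their rows exchanged high and low values between libraries. Each line holds 90 coding bases of the mm9 genome, 5′ to 3′ on the coding strand, and a capital marks the base that differs between gene and copy. The gene Rpl34 is shown from chr3:130431759-130432047 (minus strand, across an intron) and its copy Rpl34-ps1 from chr6:71074690-71074779 (plus strand).
Rpl34: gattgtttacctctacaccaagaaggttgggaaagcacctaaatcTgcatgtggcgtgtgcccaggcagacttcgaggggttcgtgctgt
Rpl34-ps1: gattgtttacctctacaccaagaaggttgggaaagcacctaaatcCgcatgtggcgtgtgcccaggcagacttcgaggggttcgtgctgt
The gene Rpl26 is shown from chr11:68715908-68716733 (plus strand, across an intron) and its copy Gm15772 from chr5:3236562-3236651 (plus strand).
Rpl26: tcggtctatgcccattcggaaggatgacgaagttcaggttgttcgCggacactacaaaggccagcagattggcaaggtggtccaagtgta
Gm15772: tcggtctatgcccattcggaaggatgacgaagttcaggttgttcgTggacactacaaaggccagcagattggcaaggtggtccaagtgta
The gene Rps27 is shown from chr3:90017140-90017537 (minus strand, across an intron) and its copy Gm9846 from chr9:114891736-114891825 (minus strand). These 2 sequences hold no capital because they do not differ.
Rps27: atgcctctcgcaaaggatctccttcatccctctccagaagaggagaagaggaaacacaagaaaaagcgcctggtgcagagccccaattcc
Gm9846: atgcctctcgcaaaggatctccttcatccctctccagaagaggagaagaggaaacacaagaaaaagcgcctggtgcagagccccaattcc
Counted from 1 at the first coding base, Rpl34 and its copy differed at T132C and C318G over 351 coding bases. Rpl26 and Gm15772 differed at C177T and T288C over 435 bases. All 252 coding bases of Rps27 were found unchanged in Gm9846.

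Levels are FPKM, mapped fragments scaled to transcript length and library size, so they may be compared between genes. This is limited where a near-identical copy may take part of a gene's reads. The libraries carried the myoblast label in their markers: Myod1, Myf5, Des, Cdh15 and Itga7 summed to between 305 and 783 FPKM in growth, and the muscle genes Myog, Myh3, Ckm, Acta1 and Tnnt3 rose from 3.55 to 148 FPKM in growth to 2229 to 11424 FPKM after differentiation. The summed markers of fat, blood, epithelial and neural cells stayed at or below 1.97 FPKM in every library and those of endothelium at or below 7.66 FPKM. Depth is unknown, because the files give no read counts. The FPKM of all genes summed to between 617396 and 680017 in the growth libraries of the 9 lines and to 409319 in WT growth. After differentiation the sums ran from 583613 to 652841 in the H3.1/H3.2-type lines and from 702942 to 894105 in the H3.3-type lines. The WT sum was then 465247.

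The rows of the ribosomal protein genes held over 20% of the summed FPKM in every GFP-H3 library and under 5% in WT. In growth the 86 genes together made up 23.5% ± 1.50 (SD, n = 9 lines), from 21.4% in H3t to 25.7% in H3.3. The WT growth library held 4.04%, below all 9 lines. In differentiated cells the share was 26.2% ± 4.79 (SD, n = 9), from 21.0% in H3t to 34.0% in H3mm7, and WT stood at 3.41%. The share rose with differentiation in 6 of 9 lines and the difference averaged 2.70 percentage points ± 4.79, less than its own spread over lines. Large-subunit genes held 11.05% of growth FPKM, small-subunit genes 10.7% and the 3 stalk genes 1.76%. Among the 50 highest genes of a library, 28 to 31 were ribosomal protein genes in the growth lines and 9 in WT growth. Since these are bulk samples, fewer cells of a type and less RNA per cell cannot be told apart. Rows on near-identical copies of these genes are not counted in the share, in the lines or in WT. Whether WT was prepared and aligned like the lines is not given either, so the gap to WT need not be one of mRNA.

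**Figure D1:**
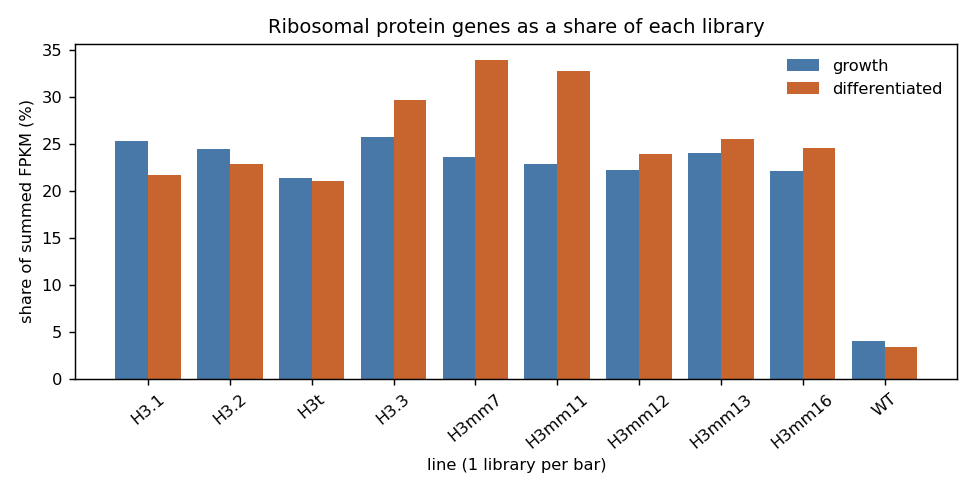
Share of each library's summed FPKM (%) held by the 86 ribosomal protein genes, 1 bar per library, growth in blue and differentiated in orange. The 9 GFP-H3 lines lie between 21.0% and 34.0% and the WT libraries at 4.04% and 3.41%. Rows on near-identical copies of these genes are not counted.

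Within the lines the 86 genes were far from equal in level. A mean of at least 1 FPKM over the 18 GFP-H3 libraries was reached by 82 genes. The 4 that did not were Rpl3l, Rpl10l, Rpl39l and Rps4y2, paralogs of Rpl3, Rpl10, Rpl39 and Rps4x, and none of them passed 0.665 FPKM in any library. Each of these was listed at 0 FPKM in at least 3 of the 20 libraries. Their partners were abundant, with Rpl3 between 963 and 1314 FPKM and Rps4x between 1760 and 2438 FPKM in growth.

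The highest mean belonged to Rpl41, a very short basic protein of the large subunit. Its growth level was lowest at 5643, median 7375 and highest at 8974 FPKM over the lines. Rplp1, an acidic protein of the stalk that recruits elongation factors, ran from 4885 over a median of 6074 to 7156 FPKM. The small-subunit genes Rps12, Rps28 and Rps20 came next, with growth medians of 5394, 4748 and 3501 FPKM. At the other end stood Rpl30, Rpl7l1, Rps15a, Rps19bp1 and Rpl22, with growth medians of 42.6, 68.7, 61.4, 84.9 and 206 FPKM. The low row of Rpl30 need not mean a low level of its mRNA. Summed with the row Gm12191 on a near-identical copy, it had a growth median of 3087 FPKM. The order of levels hardly moved between states: Spearman's rho between growth and differentiated medians was 0.976 across the 82 genes, which share their lines and their annotation. In WT the order was another, with rho of 0.0766 against the lines in growth and 0.0995 after differentiation, while the WT libraries resembled each other (rho 0.978).

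**Figure D2:**
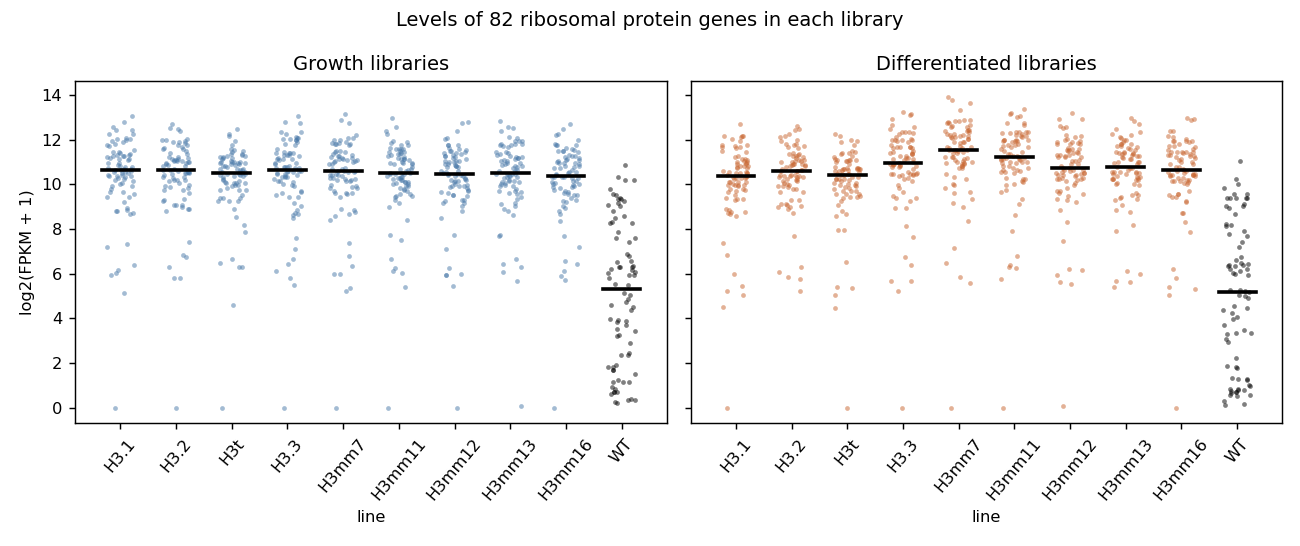
Levels of the 82 genes with a mean of at least 1 FPKM, as log2(FPKM + 1), in each growth (left) and differentiated (right) library; 1 point per gene, a bar at the median. The 9 lines resemble one another in growth and spread after differentiation, and the WT points reach down to the floor of the scale.

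Paralogs that were both expressed differed in level. Rpl22, an RNA-binding large-subunit protein, ranged from 137 to 233 FPKM in growth, and its paralog Rpl22l1 from 109.5 FPKM in H3mm7 to 444 FPKM in H3.2. Rpl22l1 varied more across lines than Rpl22, and the ranges overlapped. Rpl36a lay between 1279 and 1797 FPKM and Rpl36al between 607 and 857 FPKM, with no overlap. Rpl7, at 1292 to 1865 FPKM, was far above Rpl7l1, at 60.3 to 86.9 FPKM. Rps27l, a paralog of Rps27 and a known p53 target, lay between 481 and 698 FPKM.

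The growth libraries of the lines agreed closely and the differentiated ones did not. The SD over lines had a median of 0.169 on the log2 scale over the 82 genes in growth, against 0.207 over all 10931 genes tested. After differentiation the median SD was 0.436, against 0.307 over all genes and 0.414 over 127 other genes of like level. The spread over lines thus grew more for the ribosomal protein genes than for the whole table, and to about that of other abundant genes.

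Differentiated cells had higher levels of 29 ribosomal protein mRNAs, each by less than 1 on the log2 scale, and lower levels of 4. Differentiated and growth libraries of the 9 lines were compared with limma on log2(FPKM + 1), with p-values adjusted by Benjamini-Hochberg over all 10931 genes. Of 82 genes, 29 were higher, 4 lower and 49 not called. Over all genes tested, 32.0% were called higher and 29.7% lower, so the count of higher genes was near the background and that of lower genes under it. No ribosomal protein gene passed with a change of at least 1 in either direction, where 8.80% of all genes passed higher and 8.57% lower. With the line as a block 1 did, Rps27. Its row was low in H3t and H3mm7 growth, where that of its copy Gm9846 was high. Gene and copy summed to a median of 3929 FPKM in growth and 6596 FPKM after differentiation. The median change was 0.27 over the 82 genes and 0.04 over all genes. With quantile-normalized libraries 15 genes were higher and 9 lower, and the median change was 0.04 over the 82 genes. Of all 10932 genes in that setting 3365 were higher and 3337 lower. With libraries scaled to an equal sum 20 were higher and 5 lower, beside 2760 and 3904 of all 11343 genes. With WT added as a further line 1 gene was higher, so that Rpl39, Rpl17, Rpl23 and Rpl10 below lost their calls, and 3 were lower, without Rps2. Of all 10954 genes 3336 were then higher and 3083 lower. By the subunit assigned from the symbol, 19 of 46 large-subunit genes were higher and 1, Rpl7l1, lower. Of 32 small-subunit genes 10 were higher and 2 lower, and none of the 3 stalk genes was called.

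Rpl39, a protein of the large subunit's exit tunnel, separated the states in every line. In growth it lay at 2711 FPKM in H3.1, 2890.2 in H3.2, 2461 in H3t, 2484 in H3.3, 2411 in H3mm7, 2281 in H3mm11, 2594 in H3mm12, 2661 in H3mm13 and 2385 in H3mm16. After differentiation the same lines, in that order, gave 3273, 4074, 3451, 4054, 5474, 5103, 3779.4, 3583 and 3524 FPKM. Every differentiated library stood above every growth library, with the highest in H3mm7 and H3mm11. The change was 0.65 ± 0.11 (SE) on the log2 scale, with a limma adjusted p of 2.75e-05.

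Rpl17, which also lines the exit tunnel, rose from a growth range of 1177 to 1524 FPKM to 1450.2 to 3494 FPKM, by 0.71 ± 0.14 (limma adjusted p = 0.000153). Rpl23, which can also bind Mdm2, rose from 754 to 1117 FPKM to between 1000.4 and 2069 FPKM, by 0.70 ± 0.12 (limma adjusted p = 4.37e-05). Both were higher in 9 of 9 lines and both kept a small overlap between states. Rpl10, joined to the large subunit late in its maturation, was higher in 8 of 9 lines, by 0.61 ± 0.16 (limma adjusted p = 0.00222). Its 2 states overlapped, since H3.1 was the highest growth library at 2491 FPKM and fell slightly to 2444 FPKM.

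The 4 genes called lower were Rps2, the paralogs Rpl7l1 and Rps27l, and Rps19bp1. Rpl7l1 fell in all 9 lines, from a growth range of 60.3 to 86.9 FPKM to 36.7 to 57.5 FPKM. The ranges did not overlap and the log2 change was -0.57 ± 0.10 (SE, limma adjusted p = 7.72e-05). Rps2, at the mRNA entry of the small subunit, had growth levels of 3905, 4099, 3914, 4061, 4359.8, 4792, 4343, 4248 and 4019.9 FPKM, in the line order used for Rpl39. After differentiation it had 2237, 2466, 2159.6, 3290.2, 5959.8, 3032, 3099, 2828 and 2767 FPKM. In 8 of 9 lines the level fell below the whole growth range, and in H3mm7 it rose above it, giving -0.50 ± 0.15 (SE, limma adjusted p = 0.00653). Rps19bp1 changed by -0.42 ± 0.14 (limma adjusted p = 0.0162) and Rps27l by -0.34 ± 0.12 (limma adjusted p = 0.0178), each lower in all lines but H3mm7. The call of Rps27l was lost when H3.2, H3t, H3mm13 or H3mm16 was left out.

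The stalk proteins and Rpsa gave no call. Rplp0 had a growth range of 1506 to 2787 FPKM and a differentiated range of 1348 to 4147 FPKM, with a change of -0.07 ± 0.21 (limma adjusted p = 0.771). Rplp1, at -0.01 ± 0.20 (limma adjusted p = 0.952), fell in 6 lines and reached 13867 FPKM in H3mm7. Rplp2 changed by 0.08 ± 0.19 (limma adjusted p = 0.728) and Rpsa, the laminin-receptor protein of the small subunit, by -0.13 ± 0.19 (limma adjusted p = 0.568). For all 4 genes the differentiated range enclosed the growth range, and H3mm7 was its highest library.

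Other gene lists of the translation machinery had median changes of either sign. Over all genes tested 32.0% were called higher and 29.7% lower. Of 14 translation factors and related genes known for TOP starts, 9 (64.3%) were higher and 1 (7.14%) lower, with a median change of 0.54. Among them Tpt1 rose by 1.34 ± 0.12 (limma adjusted p = 1.36e-08), and the elongation factors Eef2 and Eef1b2 rose by 1.03 ± 0.17 and 1.01 ± 0.18, while the RNA-binding Hnrnpa1 fell by 1.26 on the log2 scale. Of 30 ribosome biogenesis genes 21 (70%) were lower and 1 (3.33%), Nop10, was higher, with a median change of -0.49. Nop56, a core protein of the box C/D snoRNP, changed by -1.74 ± 0.22 (limma adjusted p = 1.01e-06). Of 76 mitochondrial ribosomal protein genes 5 were higher and 24 lower, a median change of -0.11, and with the line as a block 12 and 31, where 36.2% and 33.2% of all genes were called. Without the block the share lower, 31.6%, was near the 29.7% of all genes. Of the ribosomal proteins outside the symbol rule, Fau changed by 0.47 ± 0.20 (limma adjusted p = 0.0487) and Gnb2l1 by 0.54 ± 0.16 (limma adjusted p = 0.00774). Among 9 tested genes that control ribosomal protein translation and supply, Eif4ebp1, Rptor and Mtor were higher (33.3%) and Eif4e was lower (11.1%). The share higher was near that of all genes and the share lower was under it. Of 6 ribosomal pseudogene symbols 3 could be tested, and Rps15a-ps6 was higher (33.3%, near the share of all genes).

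Taken line by line, the change of the ribosomal protein genes had both signs. The median log2 change of the 82 genes was -0.27 in H3.1, -0.09 in H3.2 and -0.19 in H3t, where 11, 35 and 25 genes were higher after differentiation. It was 0.34 in H3.3, 0.97 in H3mm7, 0.73 in H3mm11, 0.37 in H3mm12, 0.20 in H3mm13 and 0.34 in H3mm16, where between 63 and 80 genes were higher. All 3 lines of the H3.1/H3.2 type had a median below 0 and all 6 of the H3.3 type one above 0. WT, with 34 of 82 genes higher and a median of -0.08, lay just above H3.2. The median over all genes stayed between -0.01 and 0.06 in the 9 lines. Biogenesis genes had their lowest medians in H3t (-1.33) and H3.1 (-1.10) and were above 0 in H3mm7 alone (0.24). Translation factors were above 0 in every line, from 0.09 in H3.1 to 0.81 in H3mm11.

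**Figure D3:**
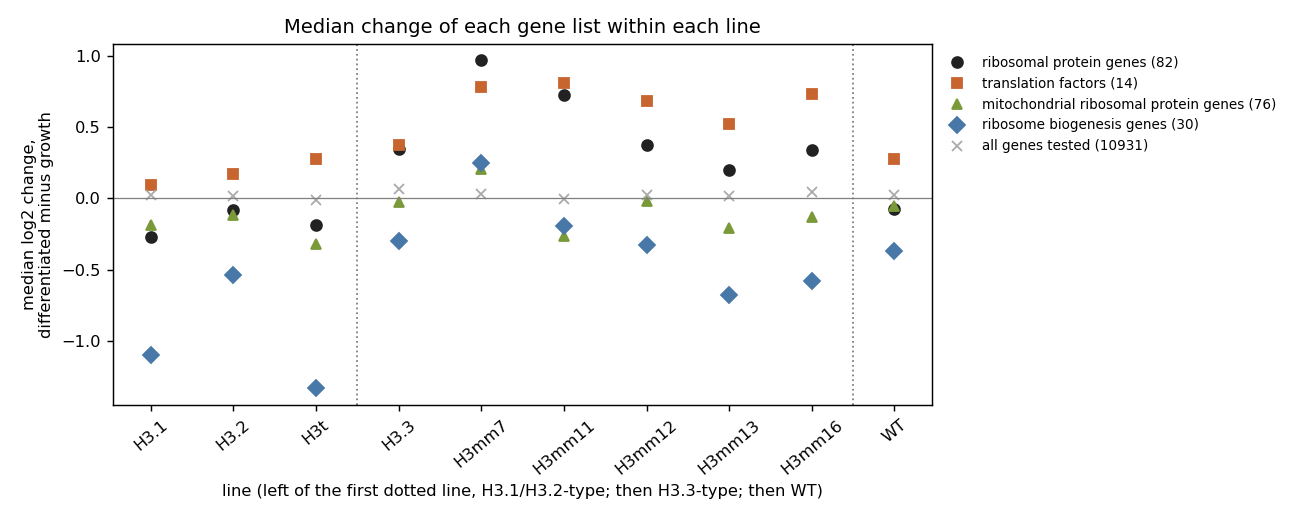
Median log2 change, differentiated minus growth, of each gene list within each line; symbols mark the lists, with the number of genes tested in the key, and dotted lines part the H3.1/H3.2-type lines, the H3.3-type lines and WT. Ribosomal protein genes lie below 0 in H3.1, H3.2 and H3t and above 0 in the 6 H3.3-type lines.

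To ask whether the 2 types of H3 differed, the 6 H3.3-type lines were compared with the 3 H3.1/H3.2-type lines within each state. In growth no ribosomal protein gene was called by limma in either direction, none reached an unadjusted p under 0.05, and the median difference was -0.01. The background was 0.201% of genes called higher and 0.0457% called lower. No gene of the 82 had all H3.3-type lines above all H3.1/H3.2-type lines in growth, an order that 5.95% of all genes showed.

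In differentiated cells 22 of 82 genes were higher in the H3.3-type lines and 0 lower, where 1.02% of all genes were called higher and 1.47% lower. The 22 included 15 large-subunit genes, 6 small-subunit genes and Rplp2. The median difference was 0.62 on the log2 scale, against 0.00 over all genes, and 81 of 82 genes lay above 0. In 50 of 82 genes, 61.0%, every H3.3-type line stood above every H3.1/H3.2-type line, an order found in 3.16% of all genes. The count of 22 depended on single lines: it was 0 without H3.1, 1 without H3t, 7 without H3.3, 4 without H3mm11, 8 without H3mm13 and 13 without H3mm16, and between 22 and 25 without each of the others. The count of all genes called higher, 112, fell as well, to 5, 12, 35, 30, 39 and 44 in that order. It was between 143 and 286 without each of the others. The ribosomal protein count was also 0 after quantile normalization and 8 with no filter on low values, where 77 and 54 of all genes were called higher. With libraries scaled to an equal sum it was 15, where 79 of all genes were higher and 1707 lower. The median difference over the 82 genes was then 0.32. The difference between states itself was not called by limma for any gene of the table (0% higher and 0% lower). That fit held no term for the line, so the pairing of growth and differentiated libraries within a line was not used. At an unadjusted p under 0.05, 50 ribosomal protein genes had a larger difference after differentiation and 0 a smaller one, with a median interaction of 0.64 over the 82 genes. Over all 10931 genes the unadjusted counts were 413 larger and 586 smaller.

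The gene with the smallest p in this comparison was Rpl27a, a protein of the large subunit. Its differentiated level was 628, 620.0 and 688 FPKM in H3.1, H3.2 and H3t. It was 913 FPKM in H3.3, 1269.5 in H3mm7, 1261 in H3mm11, 1000.2 in H3mm12, 1059 in H3mm13 and 1026 in H3mm16. The types did not overlap and the difference was 0.74 ± 0.12 (SE, limma adjusted p = 0.00686), whereas in growth it was 0.10 ± 0.12 (limma adjusted p = 0.845).

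Rpl8, near the peptidyl transferase centre, gave 1693, 1910.4 and 1608 FPKM in H3.1, H3.2 and H3t and 3137, 4423, 3551, 2955, 2738 and 2722 FPKM in the H3.3-type lines. Again no line crossed between types, and the difference was 0.89 ± 0.14 (limma adjusted p = 0.00686). Rps18, in the head of the small subunit, gave 2017, 2546 and 2033 FPKM against 3331 to 6106 FPKM, a difference of 0.91 ± 0.18 (limma adjusted p = 0.0182). Rpl11, which with 5S rRNA can bind Mdm2, gave 1317 to 1487 FPKM against 1956 to 2973 FPKM, a difference of 0.70 ± 0.14 (limma adjusted p = 0.0236). In each of these 4 genes H3mm7 was the highest library and H3mm11 the next.

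The same 2 lines stood out across the group. H3mm7 was the highest of the 9 differentiated libraries for 66 of 82 genes and H3mm11 for 15, while H3t was the lowest for 40 and H3.1 for 35. Muscle markers did not follow that order: their sum after differentiation was 2357 FPKM in H3.1, 5152 in H3.2 and 2229 in H3t, and 2902 in H3.3, 2902 in H3mm7, 2358 in H3mm11, 11424 in H3mm12, 8364 in H3mm13 and 9055 in H3mm16. Myc was listed at 105 FPKM in H3mm7, 99.0 in H3.3, 70.2 in H3.2, 54.5 in H3mm11, 32.4 in H3mm13, 28.8 in H3mm16, 19.3 in H3.1, 9.68 in H3t and 8.53 in H3mm12. Eif4ebp1 was highest in H3mm7 and H3.3 as well, at 670.4 and 560.5 FPKM. The part of these levels in the ribosomal protein result was not tested. Among the other lists 2 biogenesis genes (6.67%), Nhp2 and Ubtf, were called higher in the H3.3-type lines. So were the elongation factors Eef1d, Eef1g and Eef2 (21.4% of the translation factors), where 1.02% of all genes were. No mitochondrial ribosomal protein gene was called. The difference between types lay above 0 for 30 of 30 biogenesis genes (median 0.43), 13 of 14 translation factors (0.49) and 65 of 76 mitochondrial ribosomal protein genes (0.23). Over all genes 5552 of 10931 lay above 0. The median interaction was 0.66, 0.52 and 0.16 over these lists, beside 0.64 over the 82 genes, so higher values in H3.3-type lines were not particular to ribosomal protein genes.

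WT stood apart from the lines, and by very different amounts from gene to gene. WT lay below all 9 lines for 75 of 82 genes in growth and for 75 after differentiation, 91.5% each time, where 22.7% and 17.7% of all genes did so. It lay at least 8-fold below the lowest line for 54 genes in growth (65.9%, background 1.40%) and for 51 after differentiation (62.2%, background 1.29%), folds being taken on FPKM + 1. WT had 1 library per state, so these counts have no test. The median line stood 19.8-fold above WT in growth and 26.3-fold after differentiation, whereas over all genes tested these medians were 0.967 and 0.940.

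The largest gaps reached the floor of the table. Rpl23a was listed at 0.530 FPKM in WT growth and at 2584 to 4418 FPKM, median 3422, in the lines. Rpl28 was listed at 0.311 FPKM in WT growth against a median of 2168 FPKM in the lines, Rpl11 at 0.189 against 1821, Rps18 at 0.639 against 2503 and Rps27 at 1.34 against 3924. After differentiation Rps12 had 0.984 FPKM in WT and 3749 to 15519.8 FPKM in the lines, and Rps29 had 0.745 against 2617 to 6930.5 FPKM. In WT 11 of the 82 genes were under 1 FPKM in growth and 15 after differentiation, while 26 and 25 were above 100 FPKM.

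A second set of genes had a smaller gap between WT and the lines, or none. In growth 28 genes and after differentiation 31 were less than 8-fold below the lowest line. Rpl22 had 168 FPKM in both WT states and Rps3, a small-subunit protein at the mRNA entry, had 647 and 516 FPKM. Rps27l had 608 and 408 FPKM and Rps19bp1 76.9 and 72.7 FPKM. These 4 fell within the range of the lines in both states. Rpl7l1, at 64.1 FPKM, was within the lines in growth and, at 61.3 FPKM, above their highest value of 57.5 FPKM after differentiation. Rpl30 by itself was above all lines, with 194 FPKM in growth and 144 FPKM after differentiation against at most 76.8 and 82.9 FPKM. Summed with the row Gm12191 on its near-identical copy, it was below all lines, with 852 FPKM in WT growth against 2043 to 3143 FPKM and 1049 FPKM after differentiation against 2201 to 6999 FPKM. Rpl26 was above the median line in WT in both states, at 4.18 and 0.662 FPKM where that line was listed at 0 FPKM. Summed with its copy row Gm15772, it had 4.18 FPKM in WT growth against 2350 to 2929 FPKM in the lines.

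Of the genes below all lines, Rpl4, Rpl8, Rpl13a and Rpl34 were among those less than 2-fold below the lowest line in both states. For Rpl34 this holds for its own row alone. Summed with the copy row Rpl34-ps1, it had 32.0 FPKM in WT growth against 2183 to 3149 FPKM in the lines. Rpl4 had 745 and 751 FPKM in WT, where the lowest line had 1087 FPKM in growth and 1107 FPKM after differentiation. Rpl8 had 1179 and 1022 FPKM against 2293 and 1608 FPKM, and Rpl13a had 443 and 488 FPKM against 850.4 and 810.2 FPKM. Other genes less than 8-fold below in both states included Rpl7, Rpl15, Rpl22l1, Rpl32, Rpl36al, Rpl39, Rpl41, Rplp0, Rplp1, Rps4x, Rps9, Rps14, Rps15, Rps15a and Rps21. Rps25 and Rps26 were among those that joined them after differentiation, with WT at 106 and 287 FPKM. Outside the symbol rule Gnb2l1 was less than 8-fold below too, at 1074 and 1063 FPKM in WT, whereas Fau had 19.0 and 15.9 FPKM.

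Most genes of the related lists did not share this gap, but some translation factors did. Over all genes tested the share 8-fold below was 1.40% in growth and 1.29% after differentiation. WT was at least 8-fold below the lowest line for 1 of 76 mitochondrial ribosomal protein genes in growth and 2 after differentiation, and the median line stood 1.33-fold and 1.28-fold above WT over those 76. For the 30 biogenesis genes the counts were 0 and 0, with medians of 1.21-fold and 0.896-fold. For the 14 translation factors they were 3 and 2, with medians of 1.60-fold and 1.88-fold, and the largest folds were 136 and 178. Of the 3 ribosomal proteins outside the symbol rule, 2 were 8-fold below in each state, with medians of 62.5-fold and 101-fold.

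A property that the symbol rule did not use was how often a gene's sequence recurs in the genome. Each run of 31 bases within a gene's exons, a word, was looked up on both strands of mm9, and 84 of the 86 genes had a gene model there. A median of 50.1% of their words occurred once in the genome, against 99.6% over 19476 genes. For 75 of the 84 genes at least 1 further place in the genome held 10% or more of the words. There were 743 such places, with a median of 6 per gene and at most 80, for Rpl7a. Rps27 had 0.444% of its words once, Rps12 2.67% and Rpl23a 6.83%. Rpl22, by contrast, had 90.4% once, Rps3 88.6% and Rpl8 87.8%.

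Large gaps to WT were most frequent among the genes with the most repeated sequence. In growth WT was 8-fold below the lowest line for 20 of 22 genes with under 25% of words found once, 11 of 19 between 25% and 50%, 17 of 26 between 50% and 75%, and 5 of 13 above 75%. After differentiation the counts were 19, 9, 17 and 5. Spearman's rho between the fold of the median line over WT and the percent of words found once was -0.42 in growth and -0.46 after differentiation over 80 genes, and 0.48 and 0.51 with the number of places elsewhere. Level moved with it as well, since rho with the level in the lines was 0.38 in growth. The 5 above 75% were Rpl18, Rpl21, Rpl24, Rps19 and Rps20. Rpl24 was listed at 0.294 FPKM in WT growth against 925 to 1157 FPKM in the lines. It had 92.1% of words once in a gene model of 5676 exon bases. Rps15a had 92.7% once in a model of 5992 exon bases, and its median line stood 4.74-fold above WT in growth. For both genes the percent need not describe the short mRNA of the ribosomal protein.

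Genes outside the group gave lower rates, which fell from each bin to the next, whereas the group's rate was higher in the bin from 50% to 75% than in the one before it. In growth WT was 8-fold below the lines for 40 of 150 other genes with under 25% of words found once, 18 of 243, 15 of 450 and 7 of 9225 in the next bins. Of the 99 other genes 8-fold below in growth, 80 had a gene model and 58 of those had under 50% of words once. Whether the WT libraries were prepared and aligned like those of the lines is not given in the sources used here, and the part of repeated sequence in the gap was not tested.

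**Figure D4:**
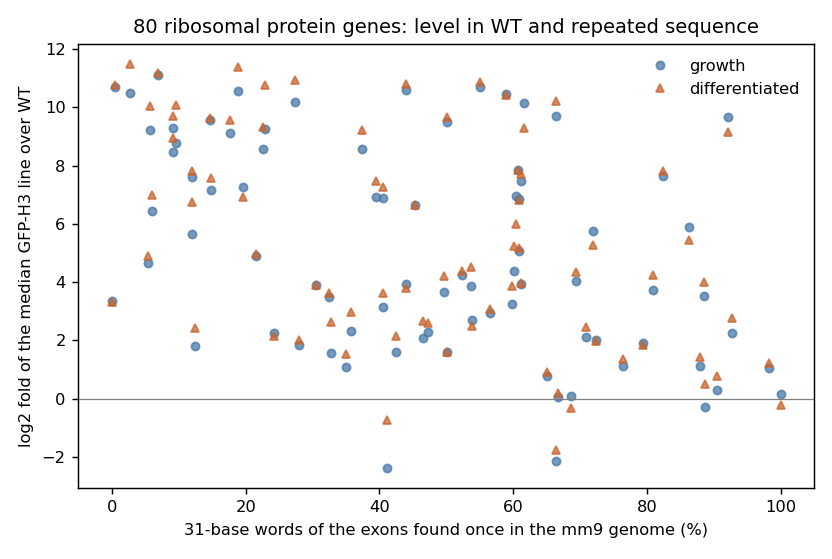
For 80 ribosomal protein genes, the log2 fold of the median GFP-H3 line over WT, on FPKM + 1 (vertical), against the percent of 31-base words of the exons found once in mm9 (horizontal); circles are growth and triangles differentiated. Points at the left, with repeated sequence, are mostly high, and points near 0 lie mostly to the right.

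Reads of a gene and of a near-identical copy cannot be told apart with certainty, and 12 rows of the table lay on copies of ribosomal protein genes. Rpl34 had 84.0, 113, 2044, 99.4, 2463, 67.8, 60.6, 99.2 and 94.0 FPKM in growth, in the line order used for Rpl39, and 32.0 FPKM in WT. Its copy Rpl34-ps1 had 248 FPKM in H3t and 81.7 FPKM in H3mm7, and 2115 to 3036 FPKM in the other lines. The rows were high and low in opposite libraries, and their sum stayed between 2183 and 3149 FPKM. In WT growth the sum was 32.0 FPKM, since the copy was listed at 0 FPKM there.

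Rps27 showed the mirror image in the same 2 lines. It had 4161, 4082, 101, 4206, 40.6, 3924, 3431, 3942 and 3482 FPKM in growth, while Gm9846 had 2352 FPKM in H3t, 3056 FPKM in H3mm7 and at most 43.3 FPKM in the other lines. Gene and copy summed to between 2453 and 4249 FPKM. The change of Rps27 with differentiation had a wide error, at 1.72 ± 0.85 (SE, limma adjusted p = 0.0846), or an adjusted p of 0.0183 with the line as a block. Rpl34 changed by -1.30 ± 0.96 (limma adjusted p = 0.250).

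Rpl26 was listed at 0 FPKM in 8 of 9 growth libraries and in 6 of 9 differentiated ones, and passed the level filter through H3.2 (1046 FPKM) and H3mm13 (3299 FPKM) after differentiation. Its copy Gm15772 had 2350 to 2929 FPKM in growth, 1703 FPKM in differentiated H3.2 and 1.03 FPKM in differentiated H3mm13. The sum lay between 2350 and 2929 FPKM in growth, and at 4.18 FPKM in WT. Rpl30, low in every line, had a copy row Gm12191 at 2009 to 3107 FPKM in growth, identical in 344 of 345 coding bases, with 659 FPKM in WT.

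In WT some copy rows were high where the gene was low. Rplp2-ps1, with 343 of 345 coding bases of Rplp2, had at most 2.39 FPKM in the lines and 843 FPKM in WT growth, where Rplp2 had 60.4 FPKM against 1966 to 3678 FPKM in the lines. Gm13826, with 290 of 291 coding bases of Rpl37, had at most 7.87 FPKM in the lines and 453 FPKM in WT growth. Rpl37 and Gm13826 together had 488 FPKM in WT growth and 487 to 869.5 FPKM in the lines, and Rpl22l1 with its copy Gm15421 had 146 FPKM against 109.6 to 445 FPKM. For these 2 genes the WT sum fell within the lines, while for Rplp2 it reached 903 FPKM and remained below them.

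**Figure D5:**
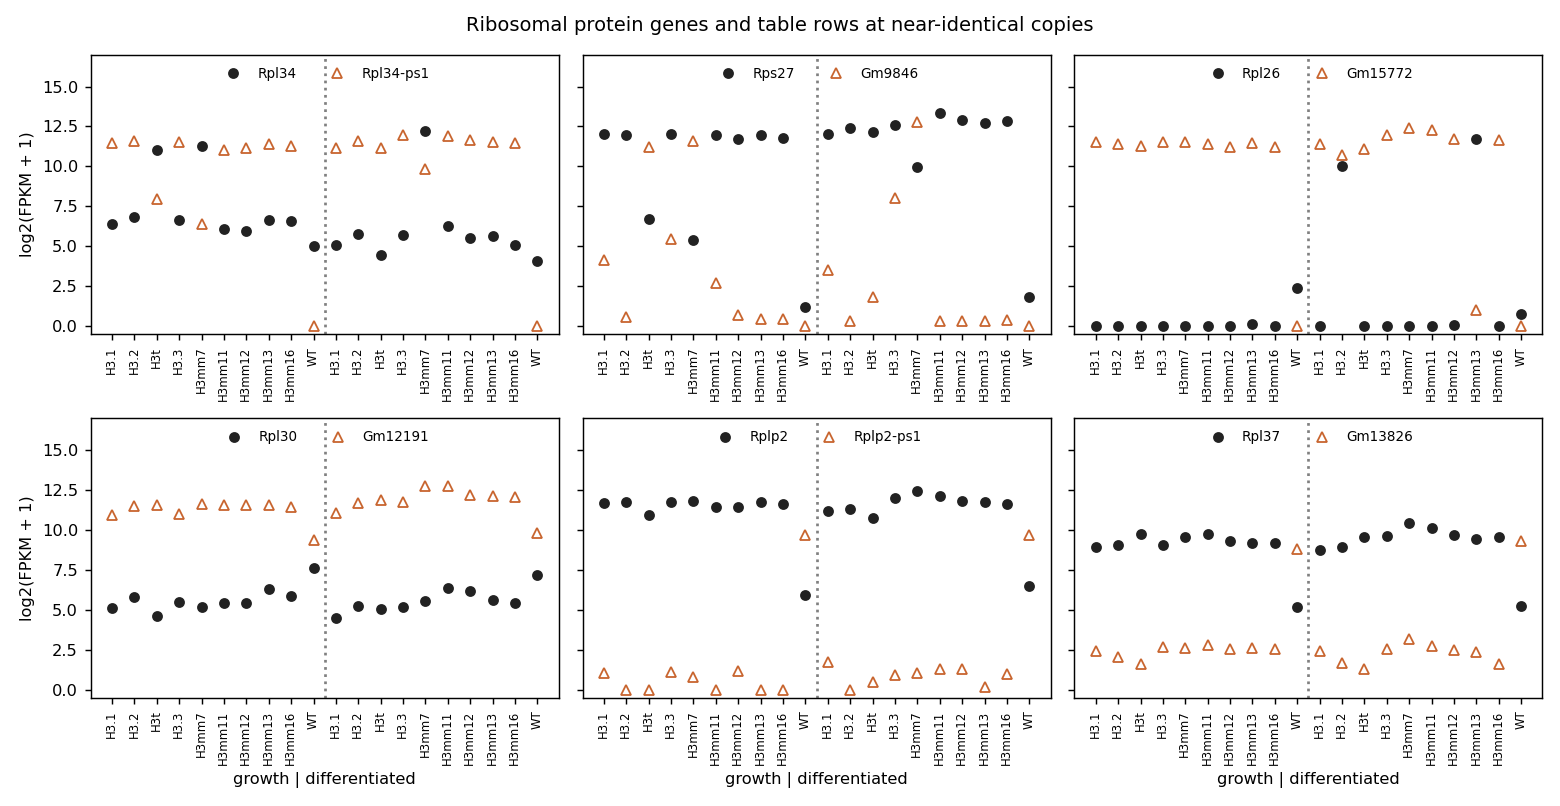
Levels of 6 ribosomal protein genes (filled circles) and of the table row on a near-identical copy (open triangles), as log2(FPKM + 1), in each growth and differentiated library. Rpl34 and Rps27 swap with their copies in H3t and H3mm7 growth, and Rplp2-ps1 and Gm13826 are high in WT alone.

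Start sites were examined because the members are known for TOP starts. RefSeq promoters of GRCm38.p6, from 250 bases before to 50 after the start, covered 77 starts of 65 genes. A run of at least 8 bases made of C and T, beginning within 30 bases of the start, was found at 45 of 77 starts (58.4%), against 24.0% of 32851 promoters in the table and 21.9% of those of other genes tested. Runs of at least 10 bases were found at 44.2% of starts, against 11.6% of all promoters and 10.5% of those of other genes tested. The letters CCGGAAG, on either strand, were in 35.1% of the members' windows and 8.86% of all promoters, though in 18.3% of those of other genes tested. AAGATGGCG on either strand was in 7.79%, against 1.40% of all promoters and 3.19% of those of other genes tested. TATAAA between 40 and 15 bases before the start was in 1.30%, between the 1.99% of all promoters and the 1.09% of those of other genes tested. These runs and letters may overlap one another and are a description of the sequence.

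The windows below are 30 bases of GRCm38.p6 from genes named above, 5′ to 3′ on the gene's strand. Capitals mark the longest C and T run among those that began within 30 bases of the start. Rps18, Rpl27a and Rpl11 were higher in H3.3-type lines after differentiation, Rps12 and Rpl41 were among the most abundant, Rpl10 was higher after differentiation and Rpl7l1 lower. They lie at chr17:33955646-33955675 (minus), chr7:109519183-109519212 (plus), chr4:136053359-136053388 (minus), chr10:23787180-23787209 (minus), chr10:128549175-128549204 (minus), chrX:74270786-74270815 (plus) and chr17:46782659-46782688 (minus).
Rps18: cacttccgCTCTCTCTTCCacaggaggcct
Rpl27a: ttcgtgagCTCCTCCCTTTTCCCTTTCTgc
Rpl11: gccggaagTCTCCCTCTCTCTTCCTgttct
Rps12: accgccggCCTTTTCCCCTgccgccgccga
Rpl41: cagccccgCCCTaagggacgacacacgggc
Rpl10: ggctgtaaCTCTatggttgttacagtggaa
Rpl7l1: cctctctaCCCCgcccggtgaggctgcgca
By this rule the longest runs were 11, 20, 17 and 11 bases in the first 4 and 4 bases each in Rpl41, Rpl10 and Rpl7l1. Such short runs were thus found in abundant, higher and lower genes alike. The Rpl7l1 window also shows a longer run in small letters, which began more than 30 bases before the start and was not counted. Rpl23 had 6 bases, Rps2 had 8 and Rpl39 had 9. No promoter was matched for the other members outside the 65, and nothing is said of them.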

How the data were processed

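The deposited table held FPKM per gene for 20 mRNA-Seq libraries. According to the study's methods the authors aligned reads to mm9 with TopHat2 2.0.8 and computed FPKM with Cuffdiff of Cufflinks 2.0.1 at its default parameters. All 20 columns were used (0 left out) and the ChIP-Seq and 3'-seq data were not used here. Members, lists and named genes were chosen with earlier results of these data known. Genes with a mean of at least 1 FPKM over the 18 GFP-H3 libraries (10931) were tested with limma 3.58.1 (trend and robust) in R 4.3.3 on log2(FPKM + 1). Fold changes are on that scale, which understates the change of low genes. P-values were adjusted by Benjamini-Hochberg over all of these genes and called under 0.05. One fit compared the states and another the 4 groups of H3 type and state. Growth and differentiated libraries of one line are the same cell line, so the line as a block was the paired alternative for the comparison of states. It was not run for the fit of H3 type and state. The script was tested on simulated data. Other alternatives were the pseudocount, the level filter, 3 scalings, limma without trend and robust, WT as a further line and leaving out each line.

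WT was compared with the lowest of the 9 lines, without a test. Words of 31 bases were counted on both strands of mm9 with Python 3.11.15, numpy 2.4.6 and numba 0.67.0. Places within 10000 bases were joined, and a place needed 10% of a gene's words. A table row was taken as a copy where its exons covered at least 50% of the place and were no more than 4 times its length. Coding sequences were aligned with Biopython 1.88. Promoters were matched by symbol to RefSeq (GRCm38.p6). Named genes were the 5 highest and 5 lowest by mean, up to 5 called in each direction by change (or by adjusted p between H3 types), the paralog pairs, the stalk genes, Rpsa, genes listed at 0, and genes at either end of the ratio of WT to the lines. Rpl18, Rpl21, Rpl24, Rpl7a, Rps19, Nop56 and the rows on copies were named after their values were seen. Some genes that this rule names are not reported here.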

Additional observations from a re-analysis of the deposited data

Results flagged for a closer look

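In all, 60 groups of 9 lines were examined, each being 1 named gene, or the share of summed FPKM, in 1 state. Of these, 8 had a highest or lowest line whose gap to the nearest of the others exceeded Dixon's 95% critical value. Chance alone gives about 1 in 20, but the groups share their lines and are not independent. After differentiation H3mm7 was the high library 5 times: Rps2 at 5959.8 FPKM, Rplp1 at 13867 FPKM, Rps12 at 15519.8 FPKM, Rpsa at 1899.5 FPKM and Rpl34 at 4824 FPKM. Rpl26 stood apart in H3mm13, at 3299 FPKM after differentiation and at 0.0737 FPKM in growth, where the other lines were listed at 0 FPKM. Rplp2 had its low library in H3t growth, at 1966 FPKM.

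The sign of the ribosomal protein change differed between the 2 types of H3. Every H3.3-type line had a median change above 0, the lowest being 0.20 in H3mm13, and every H3.1/H3.2-type line had one below 0, the highest being -0.085 in H3.2. This difference between the medians was not tested.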

How the results depend on the processing

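With differentiation, quantile normalization gave 15 genes higher and 9 lower and moved the median change to 0.04, WT as a further line gave 1 higher, and a log2 change of at least 1 gave 0 higher and 0 lower. Over all genes quantile normalization gave 3365 higher and 3337 lower, and WT as a further line gave 3336 higher. Leaving out each line gave 20 to 32 members higher and 3 to 5 lower, beside 3225 to 3550 and 2990 to 3300 of all genes. The paired fit, with the line as a replicate block, gave 33 higher and 4 lower, within 1.5 times the counts without it, and changed the call of Rps27. Between H3 types after differentiation the 22 genes became 0 under quantile normalization, 8 without a level filter, 0 to 25 when each line was left out, and 0 without both H3t and H3mm7, an alternative chosen after seeing the data. Over all genes the 112 called higher became 77, 54, 5 to 286 and 1 in these settings. Quantile normalization also moved the median difference to 0.15 and the median interaction to 0.18. In growth the median difference between types, -0.01, was 0.0012 with libraries scaled to their median and 0.0086 without H3mm16. Scaling libraries to an equal sum moved the median of all genes from 0.04 to -0.08 with differentiation, beside 0.13 for the members, and to -0.26 between types, beside 0.32 for the members. The cause of these shifts was not tested. With no read counts, how far depth limits any value is unknown, and 1 library per line and state leaves lines and cultures inseparable.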
